A study of Drosophila melanogaster with 4 samples.

Results

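The bric a brac locus on chromosome arm 3L of Drosophila melanogaster held 53 of the 16117 peaks that were deposited from sequencing of immunoprecipitated chromatin (ChIP-seq) for the homeodomain protein Distal-less (Dll). Members were all peaks of 3L whose midpoint lay from 1020000 to 1190000 on FlyBase release 5, a stretch of 170 kb. The locus carries the paired genes bab1 (Dmel_CG9097) and bab2 (Dmel_CG9102), both of which code for nuclear proteins with a BTB domain. The gene table at hand is on release 6, so it was used for names and gene order only: it lists bab1 and bab2 side by side with 0 genes between them. On the bab1 side the table lists CG9205, lncRNA:CR45811 and trio, and on the bab2 side it lists CG13912, Trhn and LysX. No peak was assigned to a gene, an exon, an intron or a promoter, because positions of genes on release 5 were not used here.

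The proteins of bab1 and bab2 act as transcription factors that divide the tarsus, the distal part of the leg, into segments, and they are also needed in the antenna, the ovary and the pigmentation of the adult abdomen. In the leg, Dll specifies distal fates and acts upstream of both genes. Work in Drosophila has described a leg and antenna enhancer shared by the pair and separate elements that act in the abdomen. This is background, and the list cannot say which of its peaks lie on these elements.

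All 4 libraries came from white prepupae, the start of metamorphosis, of the strain Y cn bw sp. For 2 of them Dll was precipitated (replicates 1 and 2), and the other 2 were input, the sheared chromatin before precipitation. The antibody was an affinity-purified rabbit polyclonal serum against Dll. ChIP and input shared 1 genotype, which carries oc[R3.2] and y[1], then bw[1], CG33964[R4.2], cn[1], Gr22b[1], Gr22d[1] and sp[1], then GstD5[1], lab[R4.2], LysC[1], MstProx[1] and Rh6[1]. The labels name no dissected tissue, so the peaks cannot be tied to legs, antennae or any other part of the animal, and they do not say whether replicates were separate collections. The outcome is 1 list with 0 values per library: depth is unknown, and neither an error between replicates nor a comparison of ChIP with input could be had. Every comparison of the locus with other windows is therefore a description without a test. Each peak has 1 score, the authors' value from the peak caller MACS, whose scale is not named, so it was used to order peaks within the list and never as a fold of binding.

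The locus held more peaks than most windows of its size. It held 53 peaks, against a median of 20 (interquartile range 12 to 30, mean 22.4 ± 14.2, SD) in the other 691 windows of 170 kb on 2L, 2R, 3L, 3R and X. Of those windows, 96.8% held fewer peaks, 3 held the same number and 19 held more. On 3L, 2 of 141 other windows held more. Peaks covered 19.0% of the locus, against a median of 6.49% in the other windows (interquartile range 3.55% to 10.6%). The median score of the 53 peaks was 14.39 (interquartile range 12.23 to 19.42), against 17.27 (11.72 to 35.28) for the whole list, and 32 of them (60.4%, exact 95% interval 46.0% to 73.6%) fell below the list's median score. Over all peaks the share is 49.8%. Members of the locus are neighbours and not separate draws from the list, so that interval cannot decide whether these shares differ.

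**Figure D1:**
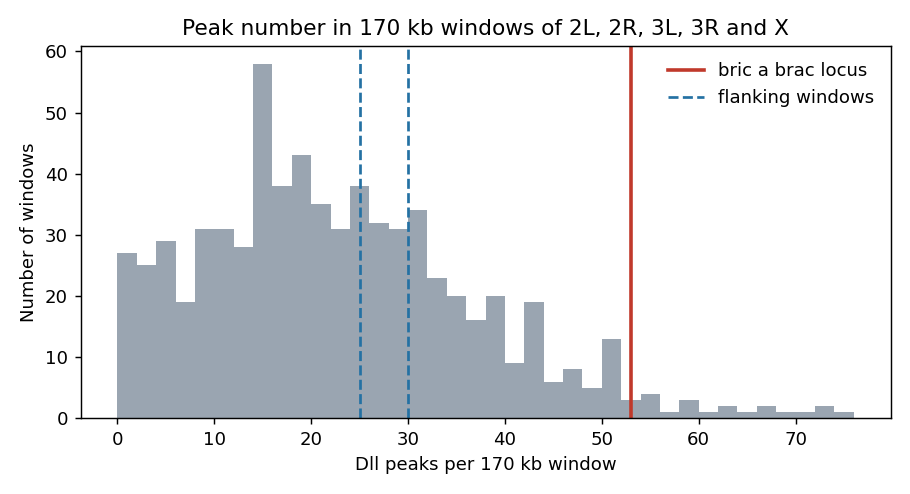
Number of Dll peaks (x axis) in 170 kb windows of the 5 large arms, with the number of windows on the y axis; the solid line marks the bric a brac locus and the dashed lines its flanking windows. The locus, with 53 peaks, lies in the upper tail, and its flanks, with 25 and 30 peaks, lie in the body of the distribution.

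The flanking windows held fewer peaks than the locus, though not fewer than the median window with its 20 peaks. The median gap of the locus, where a gap is the number of bases between the edges of neighbouring peaks, was 1101 bp over its 53 peaks. The 170 kb on the low-coordinate side held 25 peaks with a median gap of 5286 bp, and the 170 kb on the high-coordinate side held 30 with a median gap of 1858 bp. At the low-coordinate limit, the first member lay at 1032162 to 1032664 with a score of 19.28, and the nearest peak outside, at 1007460 to 1008242, scored 61.55. A stretch of 23.9 kb without a peak separated these 2 peaks. On the high-coordinate side, the last member lay at 1184796 to 1185099 with a score of 11.22, and the first peak outside, at 1196090 to 1196357, scored 22.68. These were 11.0 kb apart.

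High scores were limited to 5 peaks in 3 places, called strong peaks here. Of the 53 members, 5 (9.43%, exact 95% interval 3.14% to 20.7%) were in the highest 10% of the list, at scores of 85.20 or more. The share over all peaks is 10.0% by construction, and the share of the locus was near it. The highest, at 1129512 to 1130714, scored 194.20 over 1203 bp and ranked 453 in the list. Second came the peak at 1098410 to 1103048, with a score of 193.48 and rank 459. Behind them came 2 peaks that lay side by side: the peak at 1177995 to 1178828 scored 160.75 and that at 1176988 to 1177582 scored 127.09. The fifth, at 1127929 to 1129113, scored 98.63 and adjoined the highest. From low to high coordinate the 3 places were 27.8 kb and 47.2 kb apart, measured between the midpoints of the nearest strong peaks, with 14 and 15 weaker peaks between them. Of the other windows with a peak, 57.9% had a lower maximum than the 194.20 of the locus, and their median maximum was 165.7. Among the 76 windows whose peak number was within 25% of that of the locus (40 to 66 peaks), called windows of like peak number here, 31.6% had a lower maximum and the median was 256.1.

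**Figure D2:**
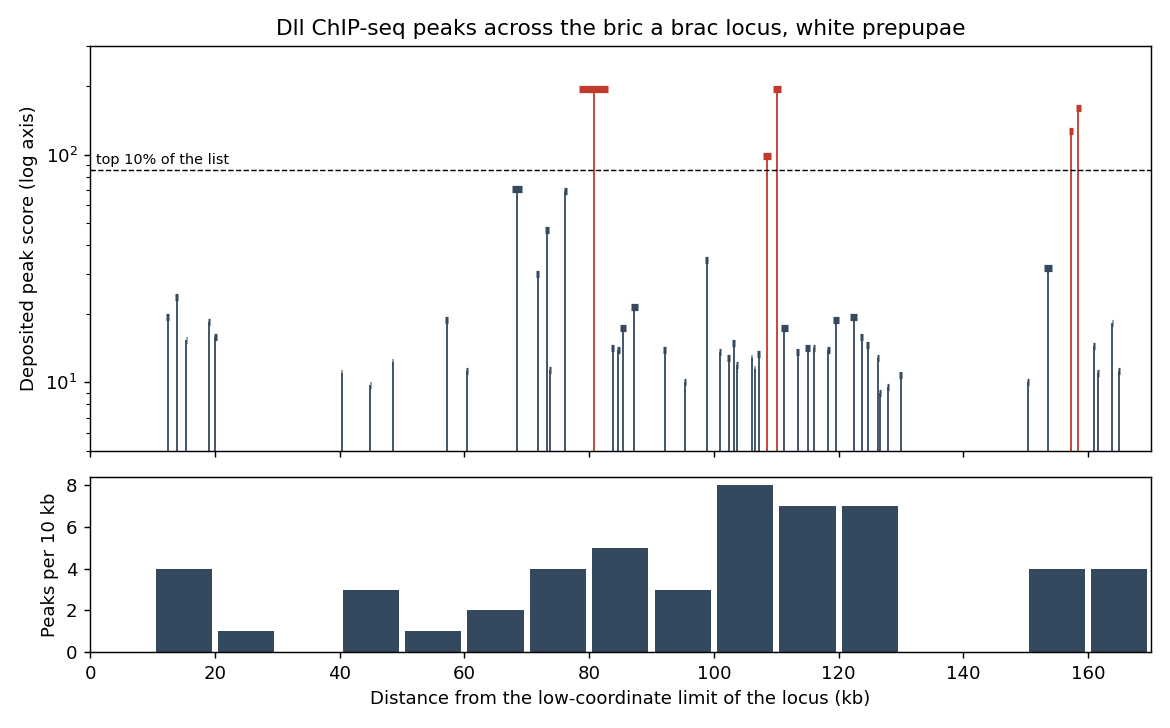
Deposited score of each of the 53 peaks (upper panel, log axis, horizontal strokes drawn to the width of the peak) and number of peaks in bins of 10 kb (lower panel), by distance from the low-coordinate limit of the locus in kb. The dashed line is the top 10% limit of 85.20, and the 5 peaks above it stand in 3 places, near 80.7, 110.1 and 158.4 kb.

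At 2 of these 3 places the strong peaks came as close pairs. The edges of the pair at 1127929 and 1129512 were 398 bp apart, and those of the pair at 1176988 and 1177995 were 412 bp apart. On the large arms, the list holds 68 such pairs, in which both neighbours are in the highest 10% of scores and lie within 500 bp of each other, among 1575 peaks of that class. The locus held 2 of them, whereas 640 of the 691 other windows held 0, 42 held 1 and 9 (1.3%) held 2 or more. Among the 76 windows of like peak number, 3 held 2 or more. This kind of pair was chosen after the scores were seen.

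The peak at 1098410 to 1103048 was the widest of the locus. It covered 4639 bp, or 14.3% of the 32345 bp in all 53 peaks, and ranked 16 by width in the whole list. Of 186 other peaks with a score within 10% of its own, 3 were wider, and their median width was 1131 bp. The list has 27 peaks of 4000 bp or more, this one included, with a median score of 166.89 (23.16 to 395.49). The wide peak also opened the longest merged region: with peaks joined across gaps of 1000 bp or less, it and 4 weaker peaks with scores of 13.83 to 21.35 formed 1 region of 9.44 kb, from 1098410 to 1107847.

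Next to this wide peak, on its low-coordinate side, lay a group of intermediate peaks. The peak at 1087611 to 1089309 scored 70.91 over 1699 bp, and the peak at 1095953 to 1096391 scored 69.34 over 439 bp. These 2 peaks had nearly the same score and differed in shape: 92.5% of peaks within 10% of the score of the first were narrower than it, against 11.4% for the second. Between them the peak at 1092885 to 1093543 scored 46.73 and that at 1091446 to 1092033 scored 29.78. A weaker peak, at 1093616 to 1093842 with a score of 11.29, also lay between them. Outside this group, the peaks at 1118598 (score 34.40) and 1172855 (31.67) were the only others above 30 that were not in the highest 10%. That of 31.67 covered 1308 bp, wider than 91.8% of the 868 peaks of like score.

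Of the strong pair at 1176988 and 1177995, the first peak was narrow for its score: its 595 bp compare with a median of 958 bp (interquartile range 682 to 1495 bp, n = 313) in peaks of like score, of which 14.1% were narrower. The second, with 834 bp, lay within the interquartile range of peaks of like score (747 to 1645 bp, n = 198). The highest peak of the locus had a width of 1203 bp near the 1131 bp median of 188 peaks of like score. By width, 6 members (11.3%, exact 95% interval 4.27% to 23.0%) were in the highest 10% of the list, at 1085 bp or more, against 10.0% of all peaks. The median width of the 53 peaks, 448 bp, lay near the 432 bp of the list. Width and score were correlated across the 53 peaks (Spearman rho 0.704), against a rho of 0.721 across 15615 peaks of the large arms. Width and score come from the same reads and the same call, and peaks are not independent replicates.

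**Figure D3:**
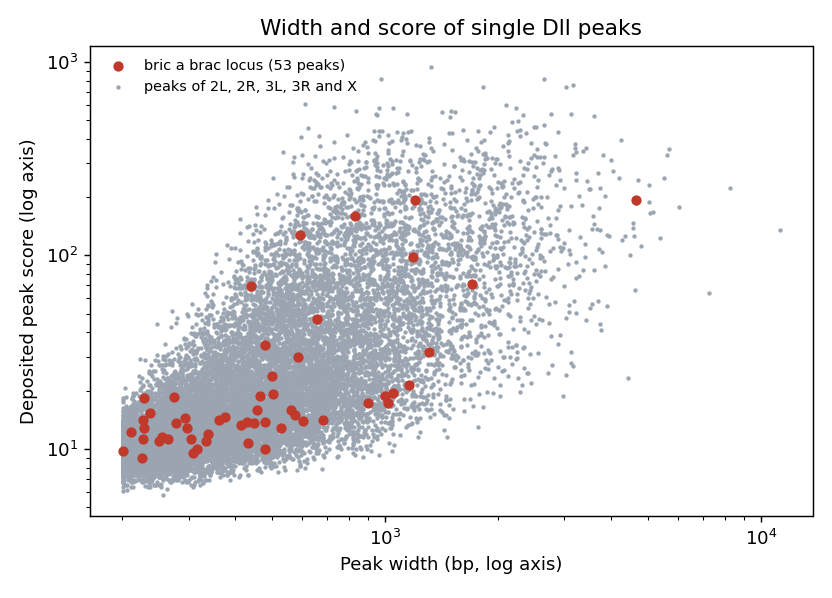
Width (x axis, bp, log axis) and deposited score (y axis, log axis) of the 53 peaks of the locus, in red, over the peaks of 2L, 2R, 3L, 3R and X, in grey. Most members lie among the many narrow peaks with scores under 20. The peak of 4639 bp stands farthest right among the members, and wider peaks are found elsewhere on the large arms, up to 11207 bp.

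Peaks were packed most tightly in a stretch of 30 kb that also held the highest one, and most of them had low scores. The 30 kb from 1120000 to 1149999 held 22 peaks, 41.5% of the locus. Its 3 bins of 10 kb held 8, 7 and 7 peaks, so the packing was nearly even and not centred on the highest peak. The densest 30 kb of each other window, found in the same way as 3 neighbouring bins of 10 kb, had a median of 8 peaks (interquartile range 5 to 11). This value rises with the number of peaks in a window. Its median was 15 (interquartile range 13 to 16) among the 76 windows of like peak number, of which 98.7% were lower than the locus. With bins of 10 kb, a single window of 691 exceeded the locus, with 23 peaks in 2R from 10310000 to 10339999. Of the 22 peaks, 20 had scores below 20, and the other 2 were the strong pair with scores of 98.63 and 194.20. Scores below 20 are common: the highest of the 20, at 19.42, was above 55.5% of the list. The widths of the 22 peaks came to 40.8% of 30 kb, with the last peak, which ends at 1150152, counted whole. The median gap was 545 bp (80 to 2019 bp). Below the median score of the list were 17 of the 22, against 32 of all 53 members and 49.8% of all peaks. Without the lower-scoring peaks the rank was lower: in the highest 50% of scores the densest 30 kb of the locus held 7 peaks, and 71.9% of the other windows had fewer. After joining peaks across gaps of 1000 bp or less, the densest 30 kb held 8 regions, above 85.1% of windows. When any 30 kb was taken in place of 10 kb bins, the locus again had 22 peaks. In that setting 2 of 691 windows had more, up to 25, and 99.4% had fewer. The measure was chosen after the positions were seen.

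The longest stretches without a peak inside the locus ran for 19.97 kb from 1150153 to 1170121 and for 19.89 kb from 1040295 to 1060184. Such stretches are usual in windows of this size: the longest gap of the other windows had a median of 29244 bp, and 22.8% of them had a shorter one than the locus. Among windows of like peak number the median was 18717 bp and 63.2% were shorter. The first stretch ended the packed 30 kb on its high-coordinate side. The 2 stretches divided the locus into 3 blocks: 5 peaks over 8.13 kb at the low-coordinate end, 40 peaks over 90.0 kb in the middle and 8 peaks over 14.98 kb at the high-coordinate end. Counted from first to last peak edge, the middle block had 4.45 peaks per 10 kb, against 6.15 and 5.34 in the low-coordinate and high-coordinate blocks. By other measures it was not the least dense. Its median gap was 994 bp, against 1063 and 1932 bp, and peaks covered 28.9% of it, against 24.3% and 29.2%. The block at the low-coordinate end held 0 peaks of the highest 10%, with a maximum score of 23.69. The middle block held 3 of them and the last block held 2. In the low-coordinate part of the middle block, from 1060185 to 1080546, 5 peaks with scores of 9.76 to 18.80 lay 2.91 to 8.31 kb apart. Of the 17 bins of 10 kb, 4 held the midpoint of no peak, against a median of 7 in all other windows, of which 18.7% had fewer such bins. Among windows of like peak number the median was 2 and 82.9% had fewer.

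Gaps in the locus were shorter than in most windows and within the range of windows with as many peaks. Of the 53 members, 38 (71.7%, exact 95% interval 57.7% to 83.2%) had another peak within 1000 bp, against 52.3% of all peaks. The interval treats peaks as independent, although lying within 1000 bp is mutual and counts both neighbours. It therefore cannot give the counting error of this share. Of the 52 gaps inside the locus, 48 (92.3%) were 5000 bp or shorter, against 68.2% of 15610 gaps on the large arms. The median gap of 1101 bp was below that of the other windows, whose median was 2638 bp (interquartile range 1594 to 4284 bp), and 10.2% of 627 windows with at least 5 peaks had a shorter one. Gaps shorten as peaks are added. Among the 76 windows of like peak number the median of this value was 1257 bp, and 36.8% were shorter. Joining peaks across 1000 bp left 28 regions, of which 15 were single peaks, and the largest number in 1 region was 6, from 1125939 to 1131818 around the highest peak.

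In median score the locus lay below most windows of like peak number. Its median of 14.39 compared with a median of 18.8 over the 76 windows (interquartile range 15.6 to 21.0), of which 13.2% had a lower value. Against the quartiles of the list, 12 members scored below 11.72, 20 from there to below 17.27, 13 from there to below 35.28 and 8 higher. In this order the classes held 22.64%, 37.74%, 24.53% and 15.09% of the members, against 24.66%, 25.16%, 25.17% and 25.01% of the list. When peaks in the highest 50% of scores alone were counted, the locus held 21, against a median of 10 over all windows, and 87.1% had fewer. Among the 76 windows of like total number, 23.7% then had fewer, around a median of 25. In the highest 25% it held 8 peaks against a median of 5, and 73.8% of windows had fewer. The direction of the median score turned in this subset. Its 8 peaks, 5 of them the strong peaks, had a median of 112.9, against 73.2 over 366 windows, of which 88.3% were lower. Windows left with under 5 peaks gave no median, and no rank among windows of like peak number was taken here.

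**Figure D4:**
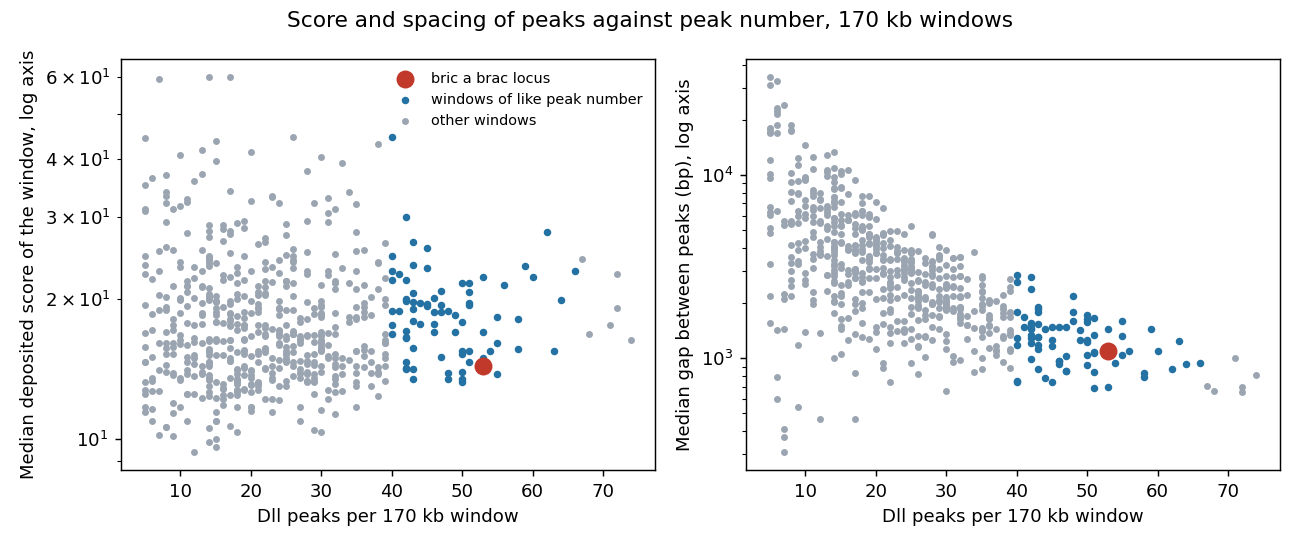
Median score (left, log axis) and median gap in bp (right, log axis) of 170 kb windows with at least 5 peaks, against their number of peaks. The bric a brac locus, in red, has a median score of 14.39 at the lower edge of the windows of like peak number, in blue, and a median gap of 1101 bp within their range.

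The 3 windows closest in number had higher median and maximum scores than the locus. The locus held 53 peaks with a median score of 14.39 and a highest score of 194.20. On 3R, the window from 850000 to 1020000 also held 53 peaks, with a median score of 16.97 and a highest score of 299.33. That from 9690000 to 9860000 held 53 with 22.29 and 359.50, and that from 25330000 to 25500000 held 53 with 14.98 and 245.14. Peaks covered 19.0% of the locus and 18.2%, 25.9% and 21.3% of these 3 windows. The windows with the most peaks were on 2R from 3060000 to 3230000 (74 peaks, median score 16.38), on 2R from 7310000 to 7480000 (72, 22.68) and on 3L from 10880000 to 11050000 (72, 19.11).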

How the data were processed

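Dll ChIP-seq of white prepupae had 2 ChIP and 2 input libraries. The submitters' processing notes name the build BDGP5 and the tools MACS2, BWA and CASAVA (versions 1.7.0.3 and 1.7.0.2). How peaks were thresholded or filtered, and whether replicates were pooled, is not given in the sources used here. Positions are on FlyBase release 5 and counted from 1, per the file headers (GFF version 3), and the deposited score of each peak has no named scale. A list already cut at a threshold cannot show what other depths would add.

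Width was end minus start plus 1. Peaks were assigned by midpoint to whole 170 kb windows counted from coordinate 0 and lying inside the span of peaks of an arm. The 64 windows with under 5 peaks gave no medians, and more windows fell under this limit in the score subsets and after joining peaks. Ranks are the percentage of other windows with a lower value, and their exact Clopper-Pearson 95% intervals treat windows as independent. Python 3.11.15, pandas 2.3.3, numpy 2.4.6 and scipy 1.17.1 were used. Scripts were tested on a simulated list, and merging was checked against bedtools 2.31.1.

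The locus, its limits and the lists were chosen with earlier results of these data known. Peaks named were members in the highest 10% of scores, the 5 widest, the first and last, those just outside, and the merged regions with the most peaks. Windows named were the 3 with the most peaks, the 3 nearest in number and the 2 flanks. Other peaks and windows were named after their values were seen. Planned counts of peaks near genes of the tarsus and planned searches of promoters and proteins need sequence or annotation of release 5 or sequence tables, and were not run.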

Additional observations from a re-analysis of the deposited data

How the results depend on the processing

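Values are the percentage of other windows below the locus. Of 55 alternatives for 6 measures, 27 stayed within the exact 95% interval of the value in the text. That interval reflects the number of windows, treated as independent. It does not measure how far a processing choice should move a value, so the count is a description only. The alternatives for the densest 30 kb, and 2 of those for peak number, were chosen after seeing the data. The values that follow are only those that left the interval. In the highest 50% of scores, the value was 87.1 for peak number, 91.6 for covered length, 19.8 for median gap, 88.1 for median width and 71.9 for the densest 30 kb. In the highest 25% it was 73.8 for peak number, 85.7 for covered length, 72.1 for width, 88.3 for median score and 67.6 for the densest 30 kb, and in the highest 10% it was 84.8 for peak number. Joining peaks within 1000 bp gave 94.9 for number, 2.45 for gap, 95.1 for width, 32.6 for score and 85.1 for the densest 30 kb. With windows of 3L only it was 98.6 for number, 61.7 for width, 21.9 for score and 100 for the densest 30 kb. Limits 10 kb inward gave 96.6 for covered length and 64.9 for width. Among windows of like peak number it was 36.8 for gap, 34.2 for width, 13.2 for score and 98.7 for the densest 30 kb, and 23.7 for peak number in the highest 50% of scores. The mean of log10 scores gave 34.1. Fewer peaks remain by construction in the score subsets, and other causes of these shifts were not tested. No paired analysis was possible because the list holds no values per library; for the same reason no replicate could be left out.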

Other observations

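The 48 members outside the highest 10% of scores had similar scores near to and far from the strong peaks. The 19 within 5 kb of a strong peak of the locus had a median score of 14.10 (10.97 to 69.34) and a median width of 439 bp, and the 29 farther away had 13.88 (8.97 to 70.91) and 428 bp. The scores of neighbouring peaks had a Spearman correlation of 0.306 across 52 pairs, which share peaks with each other. The split at 5 kb was chosen after the list was seen.

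Exact scores recurred: 20 of the 53 members shared their score with another member, for example 14.10 in 3 peaks. Such ties limit how finely the weak peaks can be ordered.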
